A study of Mus musculus with 16 samples.

Results

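The genes described here were the DNA methyltransferase genes Dnmt1, Dnmt3a, Dnmt3b and Dnmt3l together with Uhrf1. They were chosen by name, as the enzymes and cofactors that write and copy CpG methylation, and all 5 were found among the 25965 gene rows of the RNA-seq table. Oocytes came from wild-type C57BL/6Babr mice, labelled C57BL/6, and were sorted by diameter, without any treatment or mutation in any group. RNA-seq libraries were made in duplicate, A and B, at 4 diameters, namely 10–30 μm, 40–45 μm, 50–55 μm and also 60–65 μm, and 1 column of values was given for oocytes at the germinal vesicle (GV) stage, which are fully grown. Reduced representation bisulphite sequencing (RRBS), which reads CpG-rich fragments cut by MspI, was done in duplicate on each class from 40–45 μm up, and 1 library of post-bisulphite adaptor tagging (PBAT), which covers the whole genome, was made at 60–65 μm. The mice were at post-natal days 5 to 7 for the smallest class, then 7 to 12, 9 to 14 and 13 to 16 in order of diameter, and at day 20 for GV oocytes, so that diameter and age of the mouse cannot be told apart. Each library pooled many oocytes, and no label states that A and B came from separate animals, so p-values measure only the spread between these libraries.

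Cells copy CpG methylation at replication through DNMT1, which UHRF1 recruits to newly made DNA, whereas DNMT3A and DNMT3B place methyl groups on unmethylated CpGs. DNMT3L has no catalytic activity of its own but binds DNMT3A and the tail of histone H3, and the female germline needs both DNMT3A and DNMT3L to set up methylation imprints. Growing oocytes do not divide, so methylation gained at this stage is laid down de novo, and DNMT1 and UHRF1 are chiefly known there as a store for the early embryo.

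The RNA values were RPKM, reads per kilobase of exon scaled to the depth of the library. Reads could be recovered as whole numbers and gave totals of 99.4 to 198 M reads per library (M, 1e6). All 11 oocyte markers lay above 0.5 RPKM in every library, with summed levels of 2505 to 3465 RPKM. Markers of other ovarian cells were low. The 12 granulosa cell markers summed to 2.16 and 2.57 RPKM at 10–30 μm, 3.53 and 3.57 at 40–45 μm, 6.04 and 5.70 at 50–55 μm, 7.90 and 7.27 at 60–65 μm and 9.74 in GV oocytes, with no marker at 0 and 1 to 3 of them at 0.5 RPKM or more, chiefly Nr5a2 and Cyp19a1. Inha reached 0.5 RPKM in 50–55 A and in both 60–65 μm libraries, and Kitl in GV oocytes. Inha went from 0.1365 and 0.2004 RPKM at 10–30 μm to 0.5417 and 0.5285 at 60–65 μm, and Fshr from 0.0436 and 0.0545 to 0.238 and 0.229. Amh, Amhr2, Inhba, Kitl and Hsd17b1 also lay higher in both 60–65 μm libraries than in both of 10–30 μm. The ranges of Foxl2, Wt1 and Fst overlapped between these classes. Foxl2, which defines granulosa cells, did not exceed 0.0642 RPKM in any library. The 11 theca and stroma markers summed to 0.587 to 4.04 RPKM, highest at 10–30 μm, with up to 2 at 0. The 8 blood markers found in the table summed to 0.892 to 6.10 RPKM, chiefly from Pecam1, with up to 1 at 0. Pecam1 gave 0.567 of 0.892 RPKM in 10–30 A and 4.70 of 5.12 in 60–65 A. The granulosa and blood sums moved in the same direction as Dnmt3l, and their part in the results below was not tested. In pooled oocytes, fewer cells that use a gene and less of its RNA per cell cannot be told apart.

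The positions where these genes start are shown first, since the methylation data bear on them. Coordinates are those of the RNA table on GRCm38. Dnmt1 lies at chr9:20907206-20959888 on the minus strand, Dnmt3a at chr12:3806007-3914443, Dnmt3b at chr2:153649450-153687730, Dnmt3l at chr10:78041947-78063622 and Uhrf1 at chr17:56303321-56323486, all 4 on the plus strand. RefSeq places 3 starts each in Dnmt1, Dnmt3a and Dnmt3l, 2 in Uhrf1 and 1 in Dnmt3b. The windows below run from 250 bases before to 50 bases after a RefSeq start, read 5′ to 3′ on the strand of the gene, and capitals mark each CG, the dinucleotide on which CpG methylation is measured. Dnmt1 is shown at its most upstream start, chr9:20959839-20960138, which equals the start in the RNA table, and at the third start, chr9:20952574-20952873. Dnmt3a is shown at its internal start, chr12:3891494-3891793, since a short isoform, DNMT3A2, is known to arise from an internal start. Dnmt3b is shown at its only start, chr2:153649199-153649498, and Dnmt3l at its first start, chr10:78042037-78042336, and the third start, chr10:78055085-78055384, because these differed in methylation. These windows were picked after the methylation values had been seen.
Dnmt1, RefSeq start 1: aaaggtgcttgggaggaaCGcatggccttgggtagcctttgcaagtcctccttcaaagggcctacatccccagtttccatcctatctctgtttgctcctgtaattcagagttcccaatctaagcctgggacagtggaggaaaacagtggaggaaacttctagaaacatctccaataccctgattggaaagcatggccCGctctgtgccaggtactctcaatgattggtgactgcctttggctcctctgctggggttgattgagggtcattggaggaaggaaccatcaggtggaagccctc
Dnmt1, RefSeq start 3: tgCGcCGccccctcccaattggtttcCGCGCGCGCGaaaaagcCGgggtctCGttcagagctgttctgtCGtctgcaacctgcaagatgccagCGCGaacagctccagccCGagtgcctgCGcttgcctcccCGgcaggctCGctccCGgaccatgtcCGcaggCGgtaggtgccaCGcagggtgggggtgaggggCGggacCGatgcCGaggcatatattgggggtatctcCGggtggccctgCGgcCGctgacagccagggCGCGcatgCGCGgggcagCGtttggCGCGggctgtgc
Dnmt3a, RefSeq start 3: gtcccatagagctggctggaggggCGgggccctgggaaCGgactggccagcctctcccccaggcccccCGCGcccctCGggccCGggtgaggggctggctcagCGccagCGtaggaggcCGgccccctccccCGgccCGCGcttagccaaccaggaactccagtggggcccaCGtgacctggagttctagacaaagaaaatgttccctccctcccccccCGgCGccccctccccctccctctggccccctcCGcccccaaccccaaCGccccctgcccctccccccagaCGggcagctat
Dnmt3b, RefSeq start 1: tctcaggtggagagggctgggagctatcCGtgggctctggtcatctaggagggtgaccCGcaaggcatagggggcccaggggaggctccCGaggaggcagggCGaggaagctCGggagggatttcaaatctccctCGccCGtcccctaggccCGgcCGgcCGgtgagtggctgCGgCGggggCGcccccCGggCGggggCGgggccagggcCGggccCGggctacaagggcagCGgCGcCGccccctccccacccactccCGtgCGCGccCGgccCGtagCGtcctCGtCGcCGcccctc
Dnmt3l, RefSeq start 1: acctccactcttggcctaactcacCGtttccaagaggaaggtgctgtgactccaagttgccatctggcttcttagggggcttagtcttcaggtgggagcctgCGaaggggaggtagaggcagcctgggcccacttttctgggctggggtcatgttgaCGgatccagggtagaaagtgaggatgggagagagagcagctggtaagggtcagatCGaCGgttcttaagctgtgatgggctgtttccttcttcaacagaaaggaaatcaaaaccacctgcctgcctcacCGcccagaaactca
Dnmt3l, RefSeq start 3: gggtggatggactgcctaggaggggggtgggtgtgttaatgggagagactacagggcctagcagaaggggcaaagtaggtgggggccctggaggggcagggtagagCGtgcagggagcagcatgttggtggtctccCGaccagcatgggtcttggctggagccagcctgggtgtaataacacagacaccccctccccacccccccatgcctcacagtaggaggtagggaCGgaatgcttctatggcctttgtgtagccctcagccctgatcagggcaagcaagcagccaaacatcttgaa

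The starts differed widely in CpG content. The windows of Dnmt1 held 2 CpGs at the first start and 33 at the third, that of Dnmt3a held 18 at the internal start, and that of Dnmt3b held 30. The windows of Dnmt3l were poor in CpGs, with 6 at the first start, 4 at the second and 3 at the third. Over 32851 RefSeq windows of the same length the median was 7 CpGs. As many CpGs as at the Dnmt3b start, or more, were found in 11.68% of windows, and as many as at the first Dnmt3l start in 56.44%. The first start of Dnmt3a, with 46 CpGs, was among the richest, since only 1.65% of windows held as many.

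Dnmt1 and Uhrf1, the maintenance pair, were abundant at every stage. Dnmt1 stood at 328.1 and 415.5 RPKM at 10–30 μm, 397.7 and 485.7 at 40–45 μm, 401.5 and 454.0 at 50–55 μm, 375.9 and 388.6 at 60–65 μm and 346.7 in GV oocytes. Library B was higher than library A in all 4 size classes, and the ranges of neighbouring classes overlapped except between 50–55 and 60–65 μm. Ranked by RPKM, Dnmt1 stood between place 9 and place 17 of all rows in every column. Its values rested on 205500 to 584971 reads. Dnmt1 did not pass the test in any of the 5 comparisons of size classes. From 10–30 to 60–65 μm its log2 change was 0.07 (95% interval −0.24 to 0.38, adjusted p = 0.673, limma with Benjamini-Hochberg adjustment), and from 40–45 to 60–65 μm it was −0.30 (−0.61 to 0.02, adjusted p = 0.122). The first step, from 10–30 to 40–45 μm, gave 0.37 (adjusted p = 0.0894) and, among the fits that left out 1 library, passed without 10–30 B (0.49, adjusted p = 0.0476).

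Uhrf1 encodes the protein that reads hemimethylated CpGs and brings DNMT1 to them. It stood at 110.3 and 133.9 RPKM at 10–30 μm, 121.3 and 138.6 at 40–45 μm, 105.9 and 125.9 at 50–55 μm, 118.7 and 108.5 at 60–65 μm and 97.8 in GV oocytes. The ranges of all neighbouring size classes overlapped, and the GV value lay below the 8 libraries of growing oocytes. Uhrf1 did not pass the test in any comparison, with a log2 change of −0.08 from 10–30 to 60–65 μm (−0.37 to 0.21, adjusted p = 0.603) and −0.29 from 40–45 to 60–65 μm (−0.58 to 0.0021, adjusted p = 0.106). The last comparison depended on the test. In limma-voom on the recovered reads both genes passed it, at −0.36 for Dnmt1 (adjusted p = 0.0426) and −0.35 for Uhrf1 (adjusted p = 0.0389). Uhrf1 RPKM was 0.264 to 0.336 of Dnmt1 RPKM in the growing oocytes and 0.282 in GV oocytes. The log2 of this ratio had a slope of −0.06 per size class (two-sided exact permutation p = 0.15 over the assignments of libraries to classes, 0.225 after Benjamini-Hochberg adjustment over the 3 ratios tested). Without 60–65 A the slope was −0.10 with an adjusted permutation p of 0.0286.

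The RNAs of the de novo enzymes stood far below that of Dnmt1. Dnmt3a stood at 2.22 and 2.83 RPKM at 10–30 μm, 2.79 and 3.05 at 40–45 μm, 2.87 and 3.53 at 50–55 μm, 3.76 and 3.48 at 60–65 μm and 3.76 in GV oocytes. The ranges of neighbouring classes overlapped, but both libraries at 60–65 μm lay above both at 10–30 μm. These values came from 3675 to 12403 reads. Per exon length, Dnmt1 exceeded Dnmt3a by 147.6-fold and 146.6-fold at 10–30 μm and by 99.9-fold and 111.8-fold at 60–65 μm. The exon length behind the Dnmt3a RPKM was 16642 bp, against 9913 bp in the GENCODE basic annotation, and on GENCODE lengths the fold was 88.0 and 87.3 at 10–30 μm and 59.5 and 66.6 at 60–65 μm. Dnmt3a rose by 0.53 on the log2 scale from 10–30 to 60–65 μm (SE 0.13, 1.44-fold, adjusted p = 0.00785), which is a change on the scale of log2(RPKM + 0.1). This call rested on 60–65 A, without which the change was 0.49 with an adjusted p of 0.0549. In the steps between neighbouring classes Dnmt3a did not pass the test, with log2 changes of 0.32, 0.07 and 0.14 in order of diameter (adjusted p = 0.115, 0.75 and 0.702).

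Dnmt3b, the second de novo enzyme, was the lowest of the 5 genes at 60–65 μm. It stood at 1.28 and 1.38 RPKM at 10–30 μm, 1.02 and 1.04 at 40–45 μm, 1.43 and 1.35 at 50–55 μm, 1.70 and 1.68 at 60–65 μm and 1.96 in GV oocytes. Libraries A and B lay close together in each class, and the ranges of neighbouring classes did not overlap, with the 40–45 μm pair lowest. From 40–45 to 60–65 μm Dnmt3b rose by 0.58 on the log2 scale (SE 0.09, 1.49-fold, adjusted p = 0.00268), a call kept under all 17 alternatives. From 10–30 to 60–65 μm it rose by 0.34 (SE 0.09, adjusted p = 0.0126). That call was lost without 60–65 A (0.35, adjusted p = 0.0616), without 60–65 B (0.35, adjusted p = 0.0522) and in limma-voom on the recovered reads (0.26, adjusted p = 0.0544). The first step, from 10–30 to 40–45 μm, gave −0.23 (adjusted p = 0.112), which passed as a fall without scaling of the libraries (−0.34, adjusted p = 0.0399) and with upper-quartile scaling (−0.31, adjusted p = 0.0469). The next gave 0.35 (adjusted p = 0.0554), and 0.35 and 0.36 with 10–30 A or 10–30 B left out. It passed without scaling of the libraries (0.40, adjusted p = 0.0446) and without the variance trend (0.35, adjusted p = 0.0486). The gene 7530422B04Rik lies across the Dnmt3b start on the opposite strand. It stood at 0.336 and 0.202 RPKM at 10–30 μm and at 0.0795 and 0.0308 at 60–65 μm. Its part in the Dnmt3b values was not tested, and whether counting used the strand of the reads is not given in the sources used here.

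Dnmt3l, the cofactor without catalytic activity, moved most. It stood at 0.825 and 0.888 RPKM at 10–30 μm, 3.65 and 2.70 at 40–45 μm, 6.21 and 5.35 at 50–55 μm, 11.3 and 8.25 at 60–65 μm and 11.7 in GV oocytes. No 2 size classes overlapped, and each class lay above the one before it. The reads behind these values numbered 245 and 422 in the 10–30 μm libraries and 3558 and 4460 in those of 60–65 μm. From 10–30 to 60–65 μm Dnmt3l rose by 3.37 on the log2 scale (SE 0.19, 10.3-fold, adjusted p = 7.13e-06), and 41 of the 10518 genes tested rose more. The largest step was the first, at 1.87 (SE 0.19, 3.65-fold, adjusted p = 0.000827). From 40–45 to 60–65 μm, the interval over which RRBS methylation was measured, Dnmt3l rose by 1.5 (2.83-fold, adjusted p = 0.000968). These 3 calls held under all 18 alternatives.

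**Figure D1:**
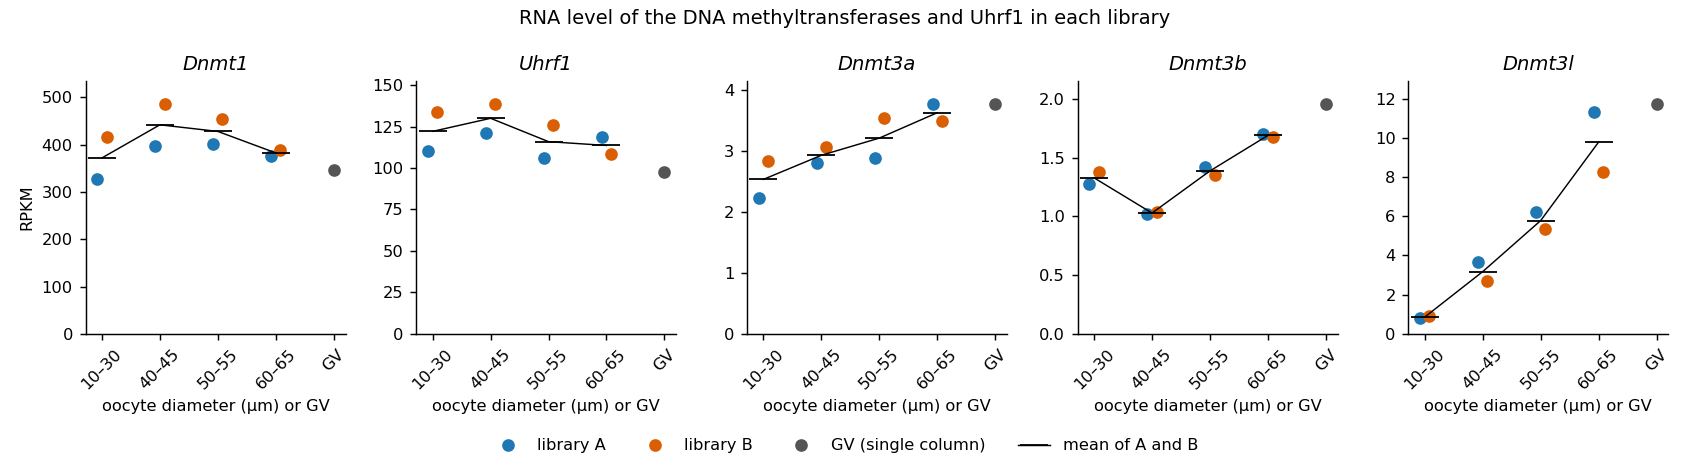
RPKM of each gene (vertical axis, starting at 0 and scaled separately for each gene) in each library, by oocyte diameter in μm or GV stage (horizontal axis), with libraries A and B as separate points, bars for the mean and the single GV value apart. Dnmt3l went from 0.825 and 0.888 RPKM at 10–30 μm to 11.3 and 8.25 at 60–65 μm, while the ranges of Dnmt1 and Uhrf1 overlapped between 10–30 and 60–65 μm.

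The intermediate steps of Dnmt3l were less certain. From 40–45 to 50–55 μm it rose by 0.80 (SE 0.19, adjusted p = 0.0376). This call was lost without the filter on low values (0.80, adjusted p = 0.0834), and single libraries also decided it. The adjusted p was 0.174 without 40–45 B, 0.233 without 50–55 A, 0.0882 without 50–55 B, 0.0506 without 60–65 A and 0.0507 without 60–65 B, with log2 changes between 0.56 and 0.92. From 50–55 to 60–65 μm the change of 0.69 (95% interval 0.26 to 1.13) did not pass the test, with an adjusted p of 0.183. Aire, which encodes a regulator known from the thymus, overlaps the start of Dnmt3l on the opposite strand. It stood at 0.182 and 0.225 RPKM at 10–30 μm, 1.07 and 0.976 at 60–65 μm and 1.07 in GV oocytes, that is 3.94 to 11 times below Dnmt3l in the same library, and its part in the Dnmt3l values was not tested.

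Of the 5 genes, 1 rose from 10–30 to 40–45 μm (Dnmt3l), where 23.6% of all genes tested were called and 15.4% rose. In the next step 1 rose (Dnmt3l), beside 9.33% of all genes called and 5.14% that rose. From 50–55 to 60–65 μm limma called 0 of the 10518 genes, that is 0%, and none of the 5, and limma-voom also called 0, while a pseudocount of 1 in place of 0.1 gave 8 that rose, and 692 genes that were higher and 759 that were lower had an unadjusted p under 0.05 (13.8% of all). Dnmt3b and Dnmt3l were among the higher ones (unadjusted limma p of 0.0422 and 0.00569). Between 40–45 and 60–65 μm 2 rose (Dnmt3b and Dnmt3l), beside 37.9% of all genes called and 17.2% that rose. From 10–30 to 60–65 μm 3 rose (Dnmt3a, Dnmt3b and Dnmt3l), beside 63.3% called and 32.5% that rose. The median log2 change of the 5 genes over this span was 0.34, against 0.02 over all genes. In this fit none of the 5 fell in any of these comparisons, whereas 8.12% of all genes fell from 10–30 to 40–45 μm, 4.18% from 40–45 to 50–55 μm, 20.7% from 40–45 to 60–65 μm and 30.8% from 10–30 to 60–65 μm. Falls were called in other fits, as given above for Dnmt1, Uhrf1 and Dnmt3b. The balance of rises and falls over all genes depended on the scaling of the libraries. In the step from 10–30 to 40–45 μm 1624 genes rose and 854 fell, against 1088 and 1521 without scaling and 1226 and 1243 with upper-quartile scaling, while the median log2 change of all genes was 0.04, −0.07 and −0.04. Without scaling 679 rose and 346 fell from 40–45 to 50–55 μm, against 541 and 440, and 2294 rose and 1612 fell from 40–45 to 60–65 μm, against 1809 and 2173. The shares over all genes also moved when 1 library was left out. From 40–45 to 50–55 μm the genes that rose then numbered 0 to 878 and those that fell 0 to 810, with 0 of either without 40–45 B or without 50–55 A, against 541 and 440 with all libraries. The corresponding ranges were 723 to 1793 and 253 to 1029 from 10–30 to 40–45 μm, 672 to 2088 and 671 to 2403 from 40–45 to 60–65 μm and 2494 to 3429 and 2317 to 3242 from 10–30 to 60–65 μm.

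**Figure D2:**
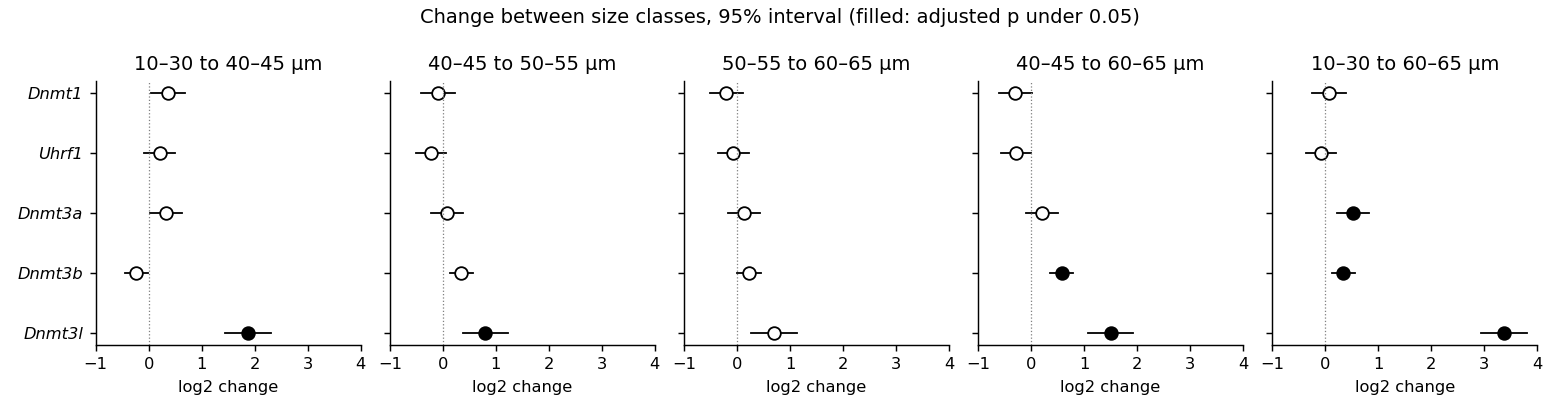
Log2 change of each gene between size classes (horizontal axis, on the scale of log2(RPKM + 0.1) after scaling) with its 95% interval, 1 panel per comparison, filled points for an adjusted p under 0.05. Dnmt3l lay far to the right of the other genes in the panel from 10–30 to 60–65 μm, at 3.37, and the intervals of Dnmt1 and Uhrf1 included 0 there.

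The make-up of the DNMT3 group therefore differed between small and large oocytes. Dnmt3l made up 19.1% and 17.4% of the summed RPKM of Dnmt3a, Dnmt3b and Dnmt3l at 10–30 μm, 48.9% and 39.7% at 40–45 μm, 59.1% and 52.3% at 50–55 μm, 67.4% and 61.6% at 60–65 μm and 67.2% in GV oocytes. Dnmt3a was the largest of the 3 at 10–30 μm, with 51.4% and 55.5%, and Dnmt3l was the largest from 50–55 μm on. The ratio of Dnmt3l to Dnmt3a RPKM was 0.371 and 0.313 at 10–30 μm, 1.31 and 0.884 at 40–45 μm, 2.16 and 1.51 at 50–55 μm, 3.01 and 2.37 at 60–65 μm and 3.12 in GV oocytes. No 2 size classes overlapped. On GENCODE exon lengths each ratio was lower, from 0.247 and 0.209 at 10–30 μm through 0.871 and 0.589 at 40–45 μm and 1.44 and 1.01 at 50–55 μm to 2.01 and 1.58 at 60–65 μm, and the share of Dnmt3l at 60–65 μm was 60.3% and 54.2%, so that the diameter at which Dnmt3l passed Dnmt3a depends on the lengths. The log2 of the ratio, whose slope does not depend on them, had a slope of 0.93 per size class (two-sided exact permutation p = 0.000794, the smallest that the assignments allow, adjusted p = 0.00238). The ratio of Dnmt3b to Dnmt3a lay between 0.341 and 0.574 without such an order, with a slope of −0.03 and a two-sided exact permutation p of 0.744.

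These values can be set beside the RRBS libraries of the same diameters. Over CpG positions with at least 5 reads, counted on each strand and numbering 607424 to 930524 per library, mean methylation was 2.50% and 2.53% in the 40–45 μm libraries A and B, 4.72% and 7.05% in those of 50–55 μm, and 7.51% and 8.24% in those of 60–65 μm. No size classes overlapped, and the 50–55 μm pair lay furthest apart. The mean of the pair was 2.51% ± 0.0163 (SD, n = 2), 5.88% ± 1.65 and 7.87% ± 0.517. The slope of 2.68 percentage points per class had a two-sided exact permutation p of 0.0222, the smallest that 90 assignments allow. Leaving out 50–55 A or 50–55 B tests nothing about this slope, which then rests on the other classes alone, and the smallest p of the 30 assignments left is 0.0667, the value obtained. With every position of at least 1 read the slope was 2.51 and the p 0.689, since positions under 5 reads in 50–55 A, 48.5% of all in that library, had a mean of 50.3%. In the same 3 classes the class means of Dnmt3l were 3.18, 5.78 and 9.79 RPKM, those of Dnmt3a 2.92, 3.2 and 3.62, those of Dnmt3b 1.03, 1.39 and 1.69, those of Dnmt1 441.7, 427.7 and 382.3 and those of Uhrf1 129.95, 115.9 and 113.6. Thus the means of Dnmt3a, Dnmt3b and Dnmt3l were ordered as RRBS methylation was and those of Dnmt1 and Uhrf1 in the opposite order, over 3 classes from different libraries, too few for a correlation. The share of all genes whose means were ordered either way was not counted. Of the 5 genes, only Dnmt3b and Dnmt3l passed in limma from 40–45 to 60–65 μm, beside 37.9% of all genes called. With RNA limited to these 3 classes the slope of the Dnmt3l to Dnmt3a ratio was 0.65 per class.

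**Figure D3:**
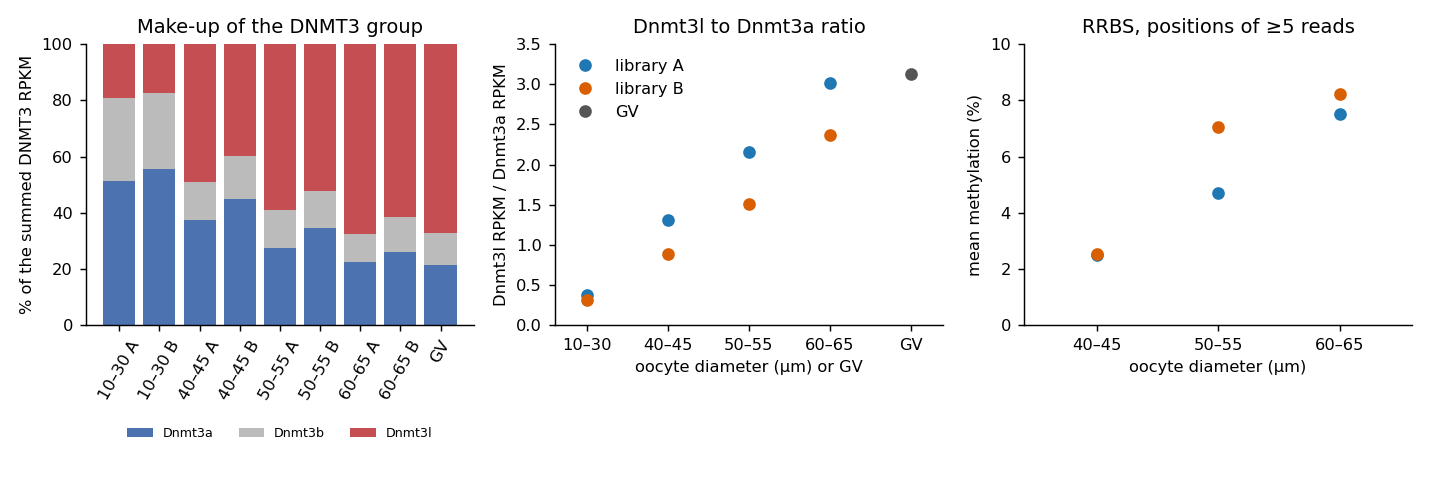
Share of Dnmt3a, Dnmt3b and Dnmt3l in their summed RPKM per library (left, %), ratio of Dnmt3l to Dnmt3a RPKM by diameter (middle) and mean RRBS methylation in % at positions of at least 5 reads (right), with 1 point per library and all axes from 0. The ratio rose from 0.371 and 0.313 at 10–30 μm to 3.01 and 2.37 at 60–65 μm, and RRBS methylation from 2.50% and 2.53% at 40–45 μm to 7.51% and 8.24% at 60–65 μm.

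Methylation could also be read over the 5 genes themselves. Over the span of Dnmt1 RRBS methylation was 2.60% and 1.25% in the 40–45 μm libraries, then 7.31% and 6.31%, then 15.2% and 17.9% in those of 60–65 μm, from 62 to 101 positions per library. Over Dnmt3a it was 1.13% and 0.730%, then 2.68% and 3.8%, then 6.39% and 7.09%, from 192 to 264 positions. Over Uhrf1 it was 0.442% and 0.650%, then 2.07% and 1.70%, then 5.35% and 3.87%, from 25 to 52 positions. In these means over positions the size classes of all 3 spans did not overlap and followed diameter. With calls pooled over positions this did not hold for Uhrf1, where 50–55 A and B gave 1.80% and 5.48% and 60–65 A and B gave 4.56% and 3.92%. The span means of Dnmt3a and Uhrf1 were carried by a minority of positions, since most lay within 1 kb of a RefSeq start of the gene and had little methylation in every library. In 60–65 A and B, 42 of 52 and 40 of 48 Uhrf1 positions lay there, with means of 0.497% and 0.109%, and the other 10 and 8 had means of 25.7% and 22.7%. Likewise 197 of 241 and 170 of 205 Dnmt3a positions lay there, with 0.573% and 0.886%, beside 32.4% and 37.2% at the other 44 and 35. The median over the 13870 gene spans measured in all 6 libraries was 2.51% and 2.29% at 60–65 μm.

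Among these genes Dnmt3b had the most RRBS methylation at its start. Its span went from 1.17% and 2.02% at 40–45 μm through 9.59% and 3.44% at 50–55 μm to 26.0% and 35.1% at 60–65 μm, with 67 to 83 positions per library. In 60–65 A and B, 72 of 81 and 69 of 76 span positions lay within 1 kb of the start. The span and start values thus rest largely on the same positions. The other 9 and 7 had means of 43.9% and 51.8%. Within 1 kb of the start, where 63 to 86 positions were measured, the values were 0.417% and 1.5%, then 6.79% and 1.19%, then 23.2% and 32.1%. At the start the 40–45 and 50–55 μm libraries overlapped, and both 60–65 μm libraries lay far above them. In the narrower window printed above, 60–65 A gave 25.5% over 25 positions, but 60–65 B gave 1.19% over 7. The slope of the start was 13.3 percentage points per class, above that of 99.0% of the 12008 starts measured, whose median slope was 0.02. The starts of Dnmt3a and Uhrf1 did not exceed 1.82% and 1.11% in any library. The starts of Dnmt1 and Dnmt3l given in the RNA table held fewer than 5 measured positions per library in RRBS. Within 1 kb of the third Dnmt1 start, measured at 27 to 46 positions, methylation was 0.702% and 0.506%, then 3.46% and 4.25%, then 5.2% and 5.97%, in order of diameter.

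Of the 7 spans and starts that could be tested, the spans of Dnmt1 (slope 7.32 percentage points per class), Dnmt3a (2.90), Dnmt3b (14.5) and Uhrf1 (2.03) each had a two-sided exact permutation p of 0.0222, the smallest possible, and the Dnmt3b start had 0.0444. After Benjamini-Hochberg adjustment over all genes none passed, with 0.088 for the 4 spans and 0.984 for the start, and 0% of all spans and 0% of all starts passed. An unadjusted p under 0.05 with a positive slope was reached by 30.3% of all spans and 2.99% of all starts, so the 4 spans of 4 stand beside a common outcome. The Dnmt3l span was measured at 9 to 14 positions in 5 libraries and was not tested. It gave 2.20% and 0.645% at 40–45 μm, 25.2% in 50–55 A and 42.6% and 44.3% at 60–65 μm, while 50–55 B had no position of 5 reads.

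**Figure D4:**
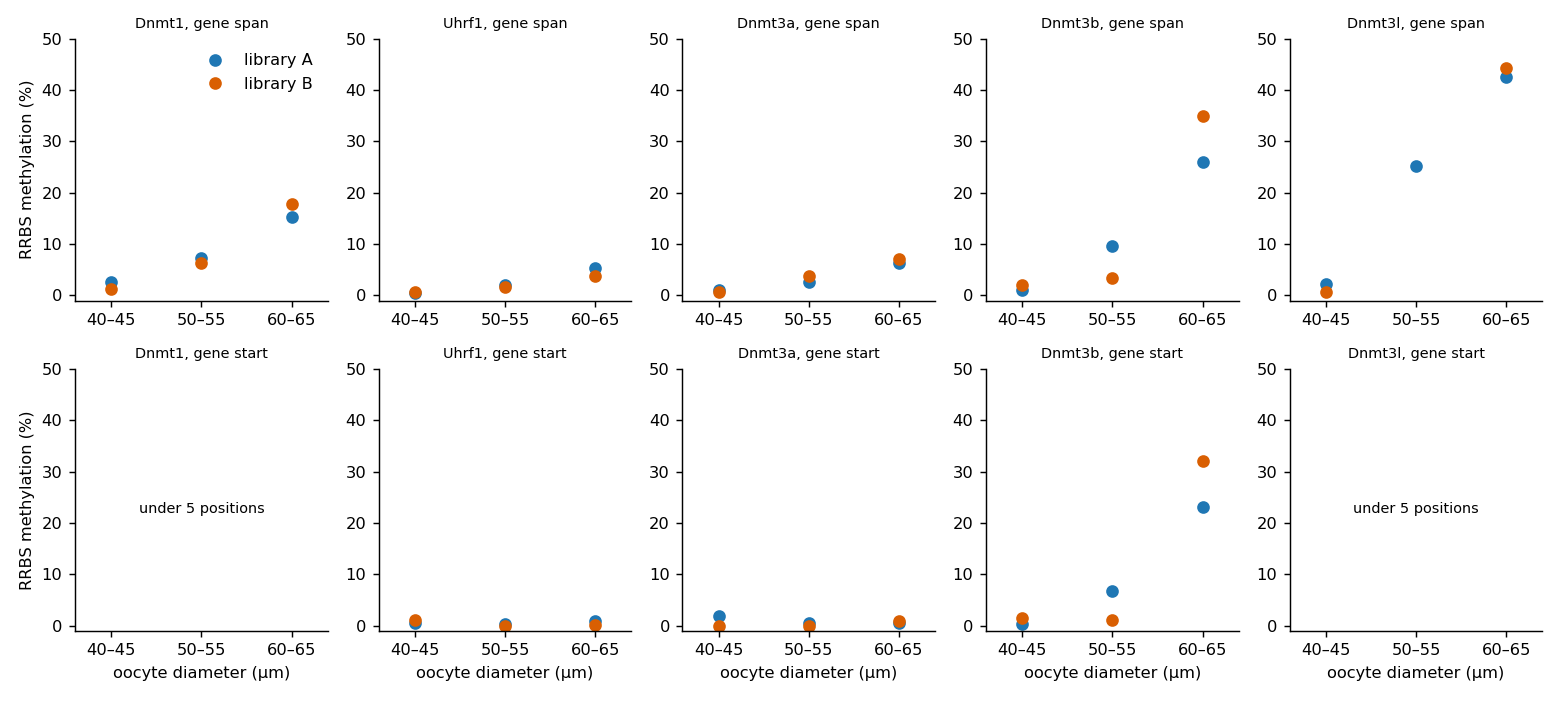
RRBS methylation in % (vertical axis) over the span of each gene and within 1 kb of its start, by oocyte diameter in μm, with 1 point per library where positions of at least 5 reads were present. The Dnmt3b start went from 0.417% and 1.5% at 40–45 μm to 23.2% and 32.1% at 60–65 μm, and the starts of Dnmt3a and Uhrf1 stayed at or under 1.82%.

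PBAT gave the pattern along each gene in 60–65 μm oocytes, in 1 library without a replicate. Mean methylation was 22.2% over 6619688 positions of at least 5 reads. Over the gene spans it was 26.0% in Dnmt1 (535 positions), 31.0% in Dnmt3a (933), 49.1% in Dnmt3b (310), 51.7% in Dnmt3l (194) and 22.8% in Uhrf1 (257). The median over 22170 genes was 15.2%, and over the 9707 genes of at least 0.5 RPKM at 60–65 μm it was 30.6%. Dnmt3b and Dnmt3l lay above 90.3% and 92.2% of all genes, Dnmt3a above 71.1%, and Dnmt1 and Uhrf1 above 64.7% and 60.9%. Against the expressed genes, Dnmt3b and Dnmt3l lay above the upper quartile of 43.4%, and Dnmt1 and Uhrf1 below the median. In Uhrf1 125 of the 257 positions lay in the first 2 kb of the gene, with a mean of 1.95%. With a minimum of 10 reads the Uhrf1 span gave 11.3%.

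At the starts the genes fell apart. Within 1 kb of the Dnmt3b start 347 of 1257 calls were methylated, 27.6% with a 95% Wilson interval of 25.2% to 30.1%, where the interval takes in counting error alone. In the narrower Dnmt3b window printed above, the mean was 16.6% over 36 positions. The start of Dnmt3a in the table had 2.72% (1.84% to 4.02%) and that of Uhrf1 1.56% (0.978% to 2.49%). The mean over positions at the Dnmt3b start, 26.3%, lay above 94.2% of the 19669 starts measured, whose median was 3.87%. Dnmt3a was also low around its internal start, at 2 of 179 calls, 1.12% (0.307% to 3.98%). The 2-kb bins centred 81 to 87 kb into the gene, which hold this start, lay between 1.85% and 11.8%, and the next bins on either side, at 79 and 89 kb, stood at 40.3% and 21.8%.

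Dnmt3l had low methylation at its first start, with 8 of 245 calls or 3.27% (1.66% to 6.31%) within 1 kb. Around the second RefSeq start 72.1% of calls were methylated (65.2% to 78.1%, 183 calls), and around the third 76.4% (67.5% to 83.5%, 106 calls). In the sequences above, the first start window holds 6 CpGs and the third holds 3. Along the gene the bin that follows the start stood at 3.64%, and the bins beyond it lay between 50.7% and 83.7% up to the end of the gene. Dnmt1 had 6.94% (3.0% to 15.2%, 72 calls) at the first start and 11.2% (8.67% to 14.4%, 463 calls) within 1 kb of the third. RNA-seq values were per gene, so they do not say which of these starts was used.

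**Figure D5:**
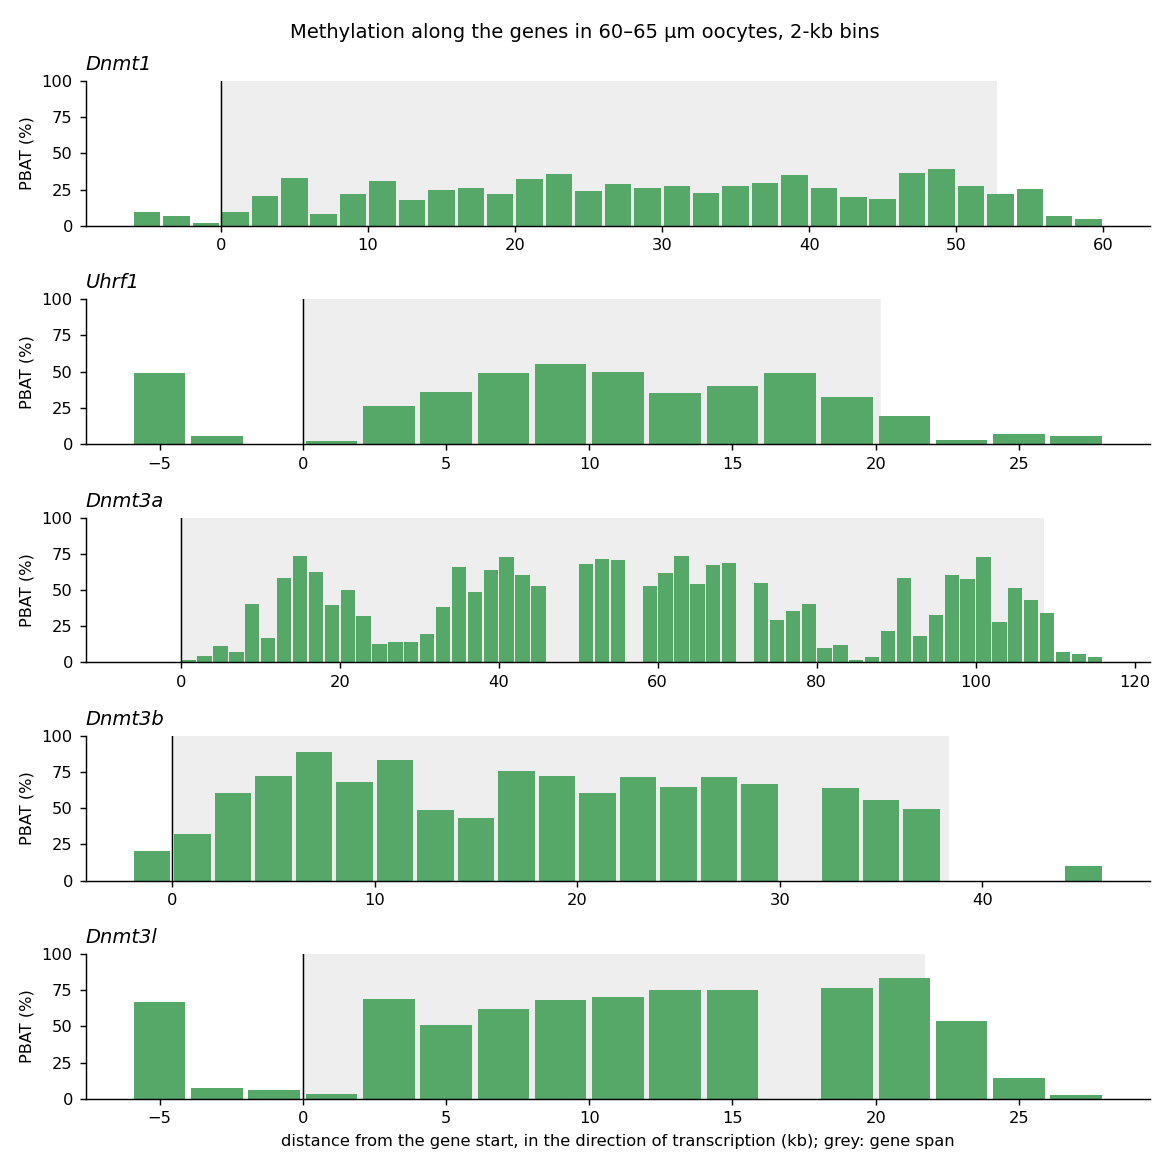
PBAT methylation in % (vertical axis) in 2-kb bins along each gene in 60–65 μm oocytes, against the distance in kb from the gene start in the direction of transcription, with the gene span in grey and bins of fewer than 3 positions left out. Dnmt3b and Dnmt3l were methylated over most of their length, and the bin after the start stood at 32.1% in Dnmt3b and 3.64% in Dnmt3l.

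GV oocytes had 1 column of values, so the step from 60–65 μm to the GV stage was not tested. On the log2 scale GV minus the mean of 60–65 μm was 0.32 for Dnmt3l, close to the SD of 0.31 between the 60–65 μm libraries. It was 0.24 for Dnmt3b, 0.10 for Dnmt3a, −0.10 for Dnmt1 (−0.15 with upper-quartile scaling) and −0.17 for Uhrf1. For these 4 genes the SD between the 60–65 μm libraries, from 0.0035 to 0.0785, was smaller than the difference.

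The wider pathway was examined through lists chosen by function. Among 15 partners and regulators of the methyltransferases, 4 rose and 4 fell from 10–30 to 60–65 μm, beside 63.3% of all genes called, 32.5% that rose and 30.8% that fell, with a median log2 change of −0.09 against 0.02 over all genes. Dppa3, also called Stella, whose protein keeps UHRF1 off chromatin in oocytes, stood at 590.4 and 475.4 RPKM at 10–30 μm and 213.4 and 248.2 at 60–65 μm and fell by 1.18 on the log2 scale (adjusted p = 0.000325). Nlrp14, a maternally expressed gene of the NLRP family, stood at 941.1 and 900.6 RPKM and at 709.5 and 792.0 in the same classes (−0.28, adjusted p = 0.131, and −0.39 with 0.0399 in limma-voom). Usp7, which encodes a deubiquitinase that binds DNMT1 and UHRF1, stood at 25.4 and 29.0 RPKM and at 26.9 and 29.0 (0.06, adjusted p = 0.595). Per exon length Dppa3 lay above Dnmt1 in both 10–30 μm libraries and below it in the other libraries of growing oocytes, with 590.4 against 328.1 RPKM in 10–30 A and 213.4 against 375.9 in 60–65 A. The 4 genes of the list that rose included Zfp57, the gene of a zinc finger protein that binds methylated imprints, which rose by 0.58 (adjusted p = 0.00205), its corepressor Trim28 by 0.63 (adjusted p = 0.00124) and the H3K9 methyltransferase gene Setdb1 by 0.67 (adjusted p = 0.000326). Ehmt2, another H3K9 methyltransferase gene, was among those that fell, by 0.53 (adjusted p = 0.00349).

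The other lists are given beside the same shares over all genes, 63.3% called, 32.5% that rose and 30.8% that fell. Of 14 tested genes of methyl donor supply, from a list of 15, 3 rose and 3 fell (median 0.04). Mat1a, an S-adenosylmethionine synthetase gene, went from 1.83 and 1.85 to 6.00 and 5.79 RPKM and rose by 1.64 on the log2 scale (adjusted p = 1.47e-05). Shmt1 fell by 0.85 (adjusted p = 0.00104) and Gnmt, which uses up S-adenosylmethionine, fell by 0.78 (adjusted p = 0.00281). Of 8 tested methyl-CpG readers, from a list of 10, 2 rose and 3 fell (median −0.12), among them Zbtb38, which fell by 2.13 (adjusted p = 2.94e-05), Mbd2, which fell by 0.56 (adjusted p = 0.00305), Mbd5, which rose by 1.05 (adjusted p = 0.000115), and Zbtb33, the gene of Kaiso, which rose by 1.03 (adjusted p = 9.85e-05).

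Of the enzymes that oxidise or remove methyl groups, 5 of 7 were tested, and 1 rose and 1 fell (median 0.06). Tet3, the TET dioxygenase of the oocyte and zygote, went from 6.95 and 13.8 RPKM at 10–30 μm to 30.6 and 22.2 at 60–65 μm and rose by 1.42 (adjusted p = 0.00273), and Tet2 fell by 0.79 (adjusted p = 0.00237). Among the enzymes of the histone marks that the DNMT3 proteins read, 10 of 12 were tested, 1 rose and 3 fell (median −0.02). Setd2, which places H3K36 trimethylation, rose by 0.68 (adjusted p = 0.0029). The H3K4 demethylase genes Kdm5b, Kdm5a and Kdm1b fell by 2.33 (adjusted p = 8.66e-06), 1.07 (adjusted p = 9.44e-05) and 0.60 (adjusted p = 0.00135). The H3K4 demethylase genes Kdm1a and Kdm5c did not pass the test (0.0066, adjusted p = 0.967, and 0.03, adjusted p = 0.836). Kdm1b still stood at 65.5 and 73.7 RPKM at 60–65 μm, above all 3 Dnmt3 genes.

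Over the 8 libraries of growing oocytes the level of Dnmt3a on the log2 scale followed that of Dnmt3l, with a Pearson r of 0.86, and that of Dnmt1 followed Uhrf1 with r of 0.76, while Dnmt3b and Uhrf1 gave −0.74. These correlations describe 8 libraries that share their size classes. Dnmt1 and Uhrf1 also differed alike between libraries A and B. A minus B was −0.26, −0.22 and −0.18 for Dnmt1 at 10–30, 40–45 and 50–55 μm, and −0.20, −0.13 and −0.25 for Uhrf1. At 60–65 μm it was −0.07 and 0.11. The part of these differences in the r of 0.76 was not tested. Among 8508 genes with a mean of at least 1 RPKM, the genes most like Dnmt3l were Arrdc2, Pex14 and Pdlim2 (r of 0.998 for each), and 1000 genes had an r of at least 0.95 with it. Those most like Dnmt3a were Ccdc9 (0.992), RP23-142A14.3 and Slc39a6 (0.989 each), with 173 genes of at least 0.95. For Dnmt1 they were Zp1, a zona pellucida gene, and Fam65b (0.99 each) and Myo9b (0.982). For Dnmt3b they were 4930550C14Rik (0.976), Dpy19l3 (0.97) and Sybu (0.969), and for Uhrf1 Sdha (0.96), Myh9 (0.946) and Nat6 (0.945), the only gene above 0.95 being Sdha. Dnmt1 and Uhrf1 spanned only 0.37 and 0.29 on the log2 scale between class means, against 3.37 for Dnmt3l.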

How the data were processed

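The expression table deposited by the authors held RPKM, reads per kilobase of exon scaled to library depth, for 9 libraries on GRCm38, without further scaling between libraries. The submitters' processing notes name Trim Galore 0.2.8 and TopHat2 2.0.9 for alignment, and the study's methods name Cufflinks and SeqMonk. Which of these made the table is not given in the sources used here. RRBS and PBAT reads were, per the labels and methods, trimmed with Trim Galore 0.3.5 and aligned with Bismark 0.14.0 or 0.10.0, and duplicates were removed from PBAT. The deposited files gave the percent of methylated calls per CpG cytosine and the counts of methylated and unmethylated calls.

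RPKM is no count, so limma 3.58.1 (R 4.3.3) with a variance trend was used in place of the edgeR test planned for counts. Libraries were scaled by a trimmed mean (30% of genes by ratio and 5% by level), log2(RPKM + 0.1) was taken, and the 10518 genes that reached 0.5 RPKM in 2 of 8 libraries were fitted with a mean per size class, at an adjusted p of 0.05. Whole reads, within 0.01 of a whole number, were recovered for 20278 of 20278 genes with a value above 0 and entered limma-voom as an alternative. The fit was tested on simulated data. Ratios and RRBS levels were tested by exact permutation of slopes on the order of the classes, with 0.1 added to each RPKM before the log2 of a ratio was taken. Trends over gene spans and starts were adjusted over all genes measured, where adjustment over the 5 genes alone had been planned. Positions needed 5 reads, chromosomes 1 to 19 and X were used, and regions needed 5 positions. Wilson intervals were at 95% and cover counting error only. Sequences came from the RefSeq promoter table for GRCm38. Python 3.11.15, pandas 2.3.3, numpy 2.4.6 and scipy 1.17.1 were used.

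Members and lists were chosen with earlier results of these data known. The genes named were the 5 members, up to 4 genes per list with the largest called change from 10–30 to 60–65 μm, Dppa3, Nlrp14, Usp7, Zfp57 and Trim28 in any case, and the 3 genes most correlated with each member. Ehmt2, Kdm1a and Kdm5c were named after their values had been seen. One result of this rule is not reported here. Alternatives were other scaling, pseudocounts, filters, a fit without the variance trend or with 2 classes only, a replicate block, and each library left out. Exon lengths of GENCODE for the ratios were added after the data had been seen, as was limma-voom.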

Additional observations from a re-analysis of the deposited data

How the results depend on the processing

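The count of the 5 genes called moved with several choices, and the cause was not tested. From 10–30 to 40–45 μm it was 2 without scaling and 2 with upper-quartile scaling (Dnmt3b fell in both), 2 with the replicate block (Dnmt1 rose) and 1 to 2 without 1 library. From 40–45 to 50–55 μm it was 2 without scaling, 2 without the variance trend, 2 with the block, 0 without the filter and 0 to 2 without 1 library. The second gene was Dnmt3b in each fit of that step that gave 2. From 50–55 to 60–65 μm the count was 1 with the block (Dnmt3l, adjusted p = 0.0422). From 40–45 to 60–65 μm it was 4 in limma-voom and 1 with a filter of 2 RPKM, which leaves out Dnmt3b. From 10–30 to 60–65 μm it was 1 to 3 without 1 library. With the same filter 8 list genes fell, against 14.

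No label or method says whether libraries with the same letter share animals or days. The A minus B differences of the size classes had correlations of 0.60, 0.59 and 0.67 among the 10–30, 40–45 and 50–55 μm classes but −0.23, −0.03 and 0.11 with 60–65 μm, so the letters were not taken as pairs throughout. With the replicate block Dnmt1 also passed from 10–30 to 40–45 μm (adjusted p = 0.0218) and from 40–45 to 60–65 μm (adjusted p = 0.0348), 147 genes rose and 80 fell from 50–55 to 60–65 μm, 964 rose and 965 fell in the step before, and the RRBS slope of 2.68 had a permutation p of 0.0556, the smallest possible there.

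Over the 6 libraries from 40–45 μm on, the slopes of the log2 ratios were 0.65 for Dnmt3l to Dnmt3a (permutation p = 0.0222, the smallest that 90 assignments allow, which adjusted over the 3 ratios gives 0.0667), 0.18 for Dnmt3b to Dnmt3a and 0.0045 for Uhrf1 to Dnmt1, the last pair with their sign turned. Without 1 library they ran from −0.063 to 0.047 for Dnmt3b to Dnmt3a and from −0.097 to −0.036 for Uhrf1 to Dnmt1. The RRBS slope was 2.51 with every position of 1 read and 2.57 to 2.93 without 1 library. Small differences turned sign. Dnmt1 from 10–30 to 60–65 μm was −0.0080 with upper-quartile scaling and −0.038 in limma-voom, where Usp7 was −0.016 and −0.047. Leaving out 1 library moved Dnmt1 between −0.067 and 0.19 and Uhrf1 between −0.19 and 0.015 from 10–30 to 60–65 μm, Dnmt1 between −0.21 and 0.018 and Dnmt3a between −0.062 and 0.22 from 40–45 to 50–55 μm, and Dnmt3a between −0.011 and 0.27 and Uhrf1 between −0.19 and 0.051 in the last step. The RRBS slope of the Dnmt3a start was 0.37 at 10 reads and 0.38 over pooled calls. RRBS held few positions at Dnmt3l, which limits what can be said there.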
